A study of Mus musculus with 3 samples.

Results

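Levels are given here for 10 genes of the circadian clock in single cells of the mouse pituitary: Arntl, Clock, Per1, Per2, Per3, Cry1, Cry2, Nr1d1, Nr1d2 and Dbp. They were chosen by name, as textbook parts of the clock, and not by their values. All 10 were found once among the 55293 gene symbols of the deposited count table. The samples were freshly dissociated pituitaries of TpitWT, TpitHT and TpitKO mice (WT, HT and KO from here on), with 1 library for each genotype, sequenced from the 3′ end of transcripts after dead cells had been sorted out with propidium iodide. The Tbx19 gene encodes Tpit, a transcription factor needed for the Pomc-expressing corticotropes and melanotropes. The labels spell out neither HT nor the allele, and they give neither the number, age and sex of the mice nor the hour of dissection. For genes whose transcripts cycle over the day, a difference in hour and a difference in genotype cannot be told apart in this design.

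The clock is a feedback loop of transcription found in nearly every cell type. ARNTL (also called BMAL1) and CLOCK bind E-boxes as a pair and activate the Per and Cry genes, whose proteins return to block that pair, and the Nr1d genes, whose proteins (REV-ERB alpha and beta) repress Arntl. DBP, a transcription factor that binds D-boxes, is a direct output of ARNTL and CLOCK. Period genes, above all Per1, also answer to signals from outside the loop, among them cAMP and glucocorticoids, and the pituitary itself governs the adrenal glucocorticoid rhythm.

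The WT library held 11222 cells, the HT library 12839 and the KO library 13413, with means of 9561, 11869 and 9935 counts per cell. Tbx19 stood at 17.6, 12.4 and 0.690 CPM (counts per 1000000 counts of the library or cluster) and Pomc at 21846, 22576 and 58.3 CPM. In all, 115 barcode sequences occurred in more than 1 library, under 1% of the cells of each. The authors had divided the cells into 21 clusters, which were named from marker genes with the ending "-like", and several kept only a number. With 1 library per genotype no difference could be set against the spread between animals, so none was tested and no p-value is given. Intervals are exact, at 95%, and cover counting error only. They take each count as independent, although counts come grouped in cells, and are therefore too narrow. A 3′ count does not grow with transcript length in a known way, so levels are compared between cells and libraries, not between genes.

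Upstream sequence is shown for the members whose ratios between KO and WT are described in most detail: Per3, Nr1d2 and Dbp, which stood on the same side in each cluster compared, and Per1, which did not. Each is the 250 bases before a transcription start given by RefSeq (GRCm38.p6), 5′ to 3′ on the strand of the gene, with matches to the motifs searched in capitals. They lie at chr4:151044666-151044915 (minus strand, Per3), chr14:18239107-18239356 (minus, Nr1d2), chr7:45704997-45705246 (plus, Dbp) and chr11:69098699-69098948 (plus, the more upstream of the starts given for Per1).
Per3: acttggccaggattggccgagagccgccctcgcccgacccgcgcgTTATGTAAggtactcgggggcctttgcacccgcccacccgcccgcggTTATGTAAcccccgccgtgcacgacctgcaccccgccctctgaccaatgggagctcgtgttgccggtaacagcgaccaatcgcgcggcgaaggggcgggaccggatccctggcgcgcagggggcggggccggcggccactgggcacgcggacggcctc
Nr1d2: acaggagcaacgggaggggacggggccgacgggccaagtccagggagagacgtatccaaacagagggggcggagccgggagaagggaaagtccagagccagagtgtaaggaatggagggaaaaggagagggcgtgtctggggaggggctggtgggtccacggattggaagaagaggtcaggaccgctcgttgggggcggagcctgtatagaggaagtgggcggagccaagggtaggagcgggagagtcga
Dbp: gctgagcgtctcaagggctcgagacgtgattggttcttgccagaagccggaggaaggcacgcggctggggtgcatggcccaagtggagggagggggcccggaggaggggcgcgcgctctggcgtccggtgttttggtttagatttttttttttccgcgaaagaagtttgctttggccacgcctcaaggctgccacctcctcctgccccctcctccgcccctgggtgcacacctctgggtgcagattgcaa
Per1: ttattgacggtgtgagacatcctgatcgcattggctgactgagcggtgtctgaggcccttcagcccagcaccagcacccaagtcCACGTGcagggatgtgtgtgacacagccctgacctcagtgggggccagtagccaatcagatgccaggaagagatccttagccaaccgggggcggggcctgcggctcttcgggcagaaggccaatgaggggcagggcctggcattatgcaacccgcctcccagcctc
Motifs were searched on both strands as exact letters: the E-box CACGTG, the variant E-box CACGTT, the D-box as TTATGTAA or TTACGTAA, the binding element of ROR and REV-ERB as TAGGTCA or TGGGTCA, and the CRE as TGACGTCA. None of these overlapped another in the windows of the members. Of the 10 genes, 9 had windows in the RefSeq table, 13 windows in all. The Per3 window held 2 D-boxes, whose first bases lay at -205 and -158 from the start, against a D-box in 0.931% of all 32851 windows of the same length. The Per1 window held an E-box at -166, and the Cry1 window held one at -60 with a variant E-box at -79. An E-box was found in 6.02% of all windows. Variant E-boxes lay at -166 in Cry2 and at -28 in Nr1d1, against 3.85% of all windows. The ROR element and the CRE occurred in 5.38% and 1.55% of all windows and in 0 of the 13 windows of the members. The windows of Dbp, Nr1d2, Arntl and Clock, and the other window of Per1, held 0 matches to the letters searched. Sites outside the 250 bases, or with other letters, were not searched.

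Arntl (ENSMUSG00000055116, chromosome 7, 113207465 to 113314126, plus strand, GRCm38, protein coding) and Clock (ENSMUSG00000029238, chromosome 5, 76209868 to 76304792, minus strand) encode the activating pair. Values are given in the order WT, HT and KO. Summed over all cells, Arntl stood at 19.04, 16.1 and 14.1 CPM. The KO library was lowest, and KO over WT was 0.741 (0.696 to 0.790). Clock stood at 43.6, 39.4 and 50.2 CPM, and KO over WT was 1.15 (1.11 to 1.19). The activating pair thus lay on opposite sides of 1 over all cells. In such sums, fewer cells of a type and less RNA per cell cannot be told apart.

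The repressing arm holds the Period genes Per1 (ENSMUSG00000020893, chromosome 11, 69095217 to 69109960, plus strand), Per2 (ENSMUSG00000055866, chromosome 1, 91415982 to 91459324, minus strand) and Per3 (ENSMUSG00000028957, chromosome 4, 151003652 to 151044665, minus strand). Per1 was nearly level over all cells, at 15.7, 16.9 and 16.7 CPM. Per2 was read in few cells: 0.775% of WT, 1.32% of HT and 1.99% of KO cells had a count. Its levels were 0.951, 1.48 and 2.76 CPM, and KO over WT was 2.90 (2.33 to 3.65). Per3, which is less needed for the core rhythm than its relatives, stood at 37.7, 40.8 and 53.5 CPM, and KO over WT was 1.42 (1.37 to 1.48). For Per2 and Per3 the order was WT, HT, KO from lowest to highest, and the counting intervals of the libraries did not overlap.

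The cryptochromes, partners of the PER proteins, are Cry1 (ENSMUSG00000020038, chromosome 10, 85131700 to 85185064, minus strand) and Cry2 (ENSMUSG00000068742, chromosome 2, 92403646 to 92434043, minus strand). Cry1 stood at 16.03, 14.2 and 13.3 CPM, and Cry2 at 19.2, 17.95 and 16.4 CPM. Both were lowest in KO over all cells, with KO over WT ratios of 0.830 (0.776 to 0.887) and 0.851 (0.801 to 0.904).

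Nr1d1 (ENSMUSG00000020889, chromosome 11, 98767932 to 98775333, minus strand) and Nr1d2 (ENSMUSG00000021775, chromosome 14, 18204054 to 18239127, minus strand) encode the REV-ERB receptors of the second loop. Nr1d1 stood at 20.1, 19.4 and 22.9 CPM. Nr1d2 stood at 14.01, 14.1 and 23.8 CPM. WT and HT were close for both genes, and KO was above them by far more for Nr1d2, whose KO over WT ratio was 1.70 (1.59 to 1.80) against 1.14 (1.08 to 1.20) for Nr1d1. Dbp, the output gene (ENSMUSG00000059824, chromosome 7, 45705088 to 45710203, plus strand), had 1835 counts in WT, 2874 in HT and 5412 in KO. These are 17.1, 18.9 and 40.6 CPM, and KO over WT was 2.37 (2.25 to 2.51). A Dbp count was found in 9.53% of WT, 11.3% of HT and 17.9% of KO cells.

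**Figure D1:**
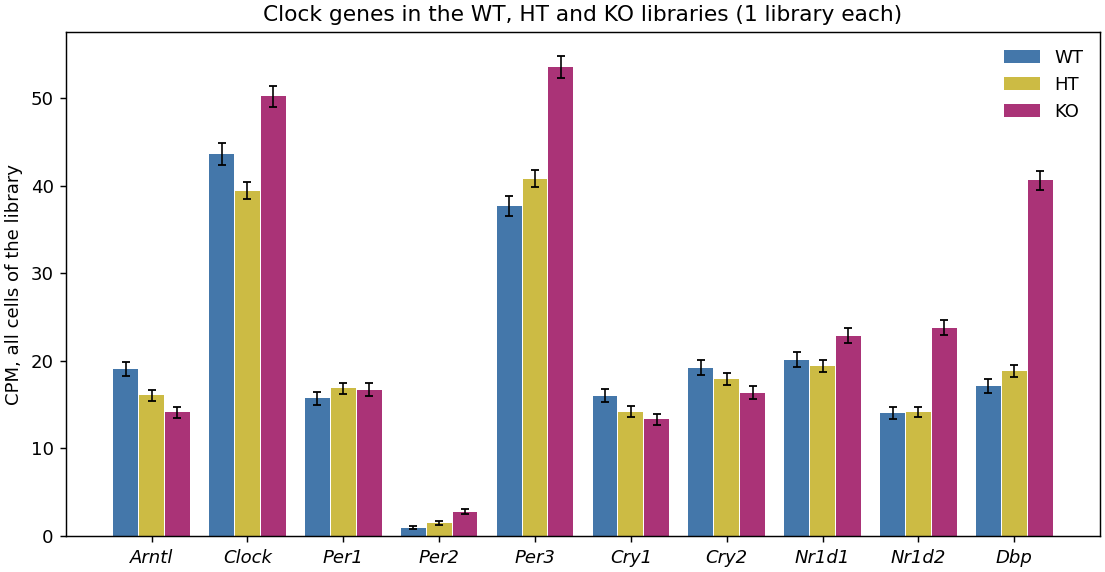
Level of each clock gene over all cells, in CPM (linear axis from 0), as bars for the WT, HT and KO libraries with exact 95% Poisson intervals for counting error. Dbp (40.6 CPM in KO against 17.1 in WT), Nr1d2 and Per3 stand highest in KO, and Arntl, Cry1 and Cry2 stand lowest there.

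Nr1d1 and Dbp share exonic sequence with genes on the opposite strand, and the sources used here do not say whether the counting used strand, so reads of each pair may have been split or mixed. Thra, a thyroid hormone receptor gene that overlaps the end of Nr1d1, stood at 67.9, 73.6 and 70.9 CPM in WT, HT and KO. Sphk2, a sphingosine kinase gene that overlaps Dbp, stood at 19.9, 20.9 and 20.6 CPM. Any part of these overlaps in the Nr1d1 and Dbp values was not tested. The antisense genes Gm45355, on Arntl, and D930015M05Rik, on Cry2, were each below 1 CPM in all 3 libraries. Other genes overlap members on the same strand without shared exonic sequence. Camta1, protein coding, lies so on Per3, at 53.9, 61.3 and 61.8 CPM. On Clock lie Ube2n-ps1, a pseudogene, at 1.54, 1.72 and 1.43 CPM, and Gm43658, at 1.94, 1.59 and 2.31 CPM.

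A member was counted as past the fold where the log2 ratio of CPM, after adding 1 CPM to both values, was at least 0.5 in size, and where both libraries together held at least 50 counts. In KO over WT, 3 of the 10 were higher past the fold, namely Dbp at 1.20, Per2 at 0.95 and Nr1d2 at 0.72 on that scale, and 0 were lower. Among all 21791 genes with enough counts, 6.14% were higher past the fold and 2.97% lower. Per3 lay just short of the limit at 0.496, and Arntl was the lowest at -0.41. The median over the 10 was 0.19, against 0.05 over all genes. In the authors' scaled counts, which give clusters of any size about the same weight, Nr1d2 was short of the limit at 0.20 while Dbp stood at 0.65 and Per2 at 1.17, and with 10 CPM added Dbp alone was past it.

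Cluster shares differed between the libraries, and part of these sums followed them. Gonadotrope-like cells, which make the gonadotropins (cluster 3), were 4.001% of WT, 4.91% of HT and 12.4% of KO cells, and in each library they carried more Dbp, Clock and Nr1d2 than the library's mean. Corticotrope-like and melanotrope-like cells (clusters 6 and 7) were 9.63% and 6.51% of WT cells and none of the 13413 KO cells fell there, so that up to 0.0224% is possible by counting. They carried more Arntl and Cry1 than the WT mean. To set the shares aside, the clusters with at least 100 cells in both libraries were averaged with the same weights in both, the cells of the 3 libraries together. For KO over WT these were clusters 0, 1, 3, 4, 8, 9 and 10. The other clusters dropped out, among them clusters 2 (18.5% of WT cells), 6 and 7, and clusters 5 and 11 (18.3% and 6.49% of KO cells). The averages thus differ from the sums over all cells in the cells used as well as in the weights. These parts were not told apart.

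With the same weights in both libraries, the Dbp ratio of KO over WT was 1.51 in place of 2.37. The other high members lost less, with 1.46 in place of 1.70 for Nr1d2 and 2.17 in place of 2.90 for Per2, and Per3 was at 1.47 in place of 1.42. On the log2 scale with 1 CPM added, 4 of 10 members were then higher past the fold, Per2 at 0.74, Dbp at 0.58, Per3 at 0.54 and Nr1d2 at 0.52, and 0 were lower, against 2.09% of all genes higher and 2.52% lower. The members that were low over all cells came nearer to 1 or above it, with Arntl at a ratio of 0.912 in place of 0.741, Cry1 at 1.07 in place of 0.830 and Cry2 at 1.22 in place of 0.851. Clock moved the other way, from 1.15 to 0.995. Both cryptochromes and Clock thus changed side. Without clusters 6 and 7, a setting chosen after seeing the data, the log2 ratio of Arntl over all cells was -0.01. Without cluster 3, chosen likewise, that of Dbp was 0.71, that of Nr1d2 was 0.56 and that of Clock was -0.06.

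**Figure D2:**
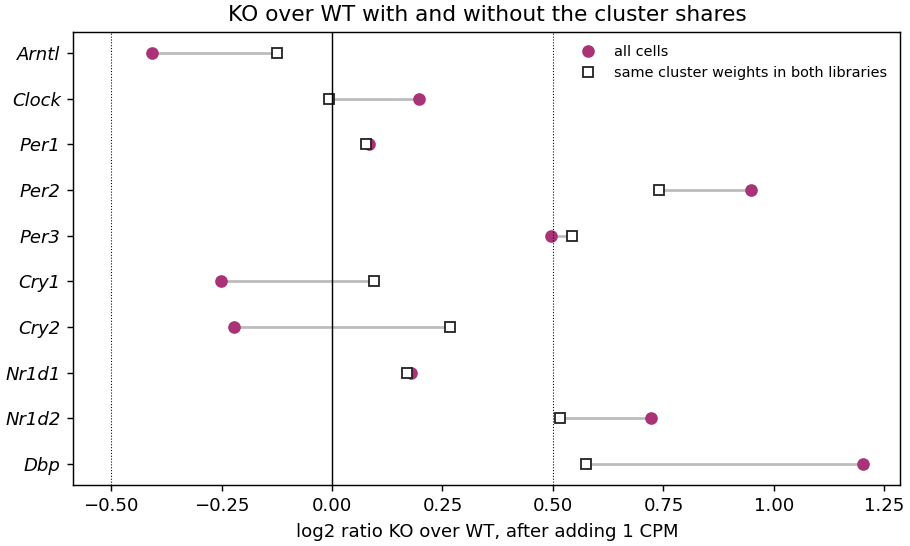
Log2 ratio of KO over WT for each clock gene after adding 1 CPM, with dotted lines at 0.5 in either direction. Filled circles are over all cells, and open squares over the 7 clusters compared only, with the same cluster weights in both libraries. Dbp moves from 1.20 to 0.58 and Arntl from -0.41 to -0.12, while Per3 stays at 0.50 to 0.54.

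Within clusters, the KO library stood above WT in each of the 7 clusters for 3 members: Per3, Nr1d2 and Dbp. A cluster was used for a gene where both libraries together held at least 20 counts of it, and 9 members had at least 5 such clusters. Of all genes with at least 5, 5.16% stood above 1 in each. With smaller clusters let in, down to 50 cells, Per3 and Nr1d2 stood above 1 in 11 of 12 clusters and Dbp in 9 of 12. The ratios are those of CPM with nothing added.

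Cluster 0 was named lactotrope-like, after the prolactin-making cells, and was led by Gal, with Prl not among its 10 leading genes. Per3 there was 60.2 CPM in WT and 76.0 in KO, a ratio of 1.26 (1.19 to 1.34). In the somatotrope-like cluster 1, the growth hormone cells, it was 20.9 and 47.1 CPM, the highest ratio of the 7 at 2.26 (1.94 to 2.63). In cluster 4, unnamed and led by Prl, it was 12.4 and 26.2 CPM, a ratio of 2.12 (1.70 to 2.67). The gonadotrope-like cells had 33.4 and 59.6 CPM and the stem cell-like cluster 10 had 31.8 and 54.6, with ratios of 1.78 and 1.72. The macrophage-like cluster 8 (13 counts in WT, 32 in KO) and the endothelial-like cluster 9 (16 and 79 counts) stood above 1 with intervals that reached below it.

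Nr1d2 was 17.7 CPM in WT and 25.6 in KO in cluster 0, a ratio of 1.45 (1.29 to 1.62), and 31.0 and 44.3 CPM in the gonadotrope-like cells, a ratio of 1.43 (1.21 to 1.71). The ratio was 1.90 (1.38 to 2.67) in cluster 4 and 1.54 (1.01 to 2.39) in the stem cell-like cells. Its lowest ratio, 1.14 (0.844 to 1.54), was in cluster 1, where Per3 had its highest. Gh, the growth hormone gene, took a large part of the counts of cluster 1, at 680373 CPM in WT and 626615 in KO, which bears on the CPM of every other gene there. With hormone and mitochondrial genes left out of the totals, Nr1d2 stood above 1 in 6 of 7 clusters, and Per3 and Dbp in 7 of 7.

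Dbp stood higher in the KO library by unequal factors. In the gonadotrope-like cells it was 89.2 CPM in WT and 134 in KO, a ratio of 1.501 (1.36 to 1.66). In the stem cell-like cells it was 54.1 and 121 CPM, a ratio of 2.24 (1.74 to 2.90). The macrophage-like cells gave the highest ratio, 6.14 (2.67 to 17.3), from 6 counts in WT and 64 in KO, or 5.38 and 33.0 CPM. The endothelial-like cells had 16.1 and 35.4 CPM, and their ratio was 2.20 (1.20 to 4.44). The lowest, in cluster 0, was 1.18 (1.06 to 1.31). The macrophage-like, endothelial-like and stem cell-like ratios were all above those of clusters 0, 1, 3 and 4, of which cluster 4 was highest at 1.86 (1.29 to 2.76). These differences between clusters were not tested.

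Gonadotrope-like cells carried much Dbp and were a larger share of KO cells, so the 5 gonadotrope markers Lhb, Fshb, Gnrhr, Nr5a1 and Tgfbr3l were summed in the other clusters. In the macrophage-like cells all 5 had counts in WT and KO, and their sum was 0.724% of that in the gonadotrope-like cluster in WT, 0.692% in HT, where Nr5a1 was at 0, and 1.04% in KO. Dbp in the same cells was 6.03% of its gonadotrope-like level in WT, 8.63% in HT and 24.7% in KO. In the stem cell-like cells the markers were at 2.61%, 2.00% and 3.16%, and Dbp at 60.6%, 59.1% and 90.4%. In the endothelial-like cells they were at 0.761%, 0.621% and 0.970%, and Dbp at 17.999%, 5.33% and 26.4%. Any part of gonadotrope RNA in the Dbp values was not tested.

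Per2 had enough counts in 4 clusters and stood above 1 in KO over WT in all 4. In the gonadotrope-like cells it was 2.58 CPM in WT and 5.29 in KO, a ratio of 2.05 (1.15 to 3.96), and in cluster 0 the ratio was 1.79 (1.11 to 2.93). The stem cell-like and cluster 4 ratios, 1.46 and 1.06, had intervals that held 1. In the macrophage-like and endothelial-like cells the WT library had 0 counts, and 10 and 18 counts were read in KO. Against the limit that 3 counts would set in the WT library of each cluster, KO was at least 1.92-fold and at least 1.91-fold higher with its counts taken as measured. Allowing for counting error in both libraries, the exact intervals of the ratio began at 1.29 and 1.40.

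Per1 went opposite ways in different clusters. In the somatotrope-like cluster 1 the level was 9.75, 8.36 and 15.8 CPM, and KO over WT was 1.62 (1.28 to 2.06). Clusters 4 and 0 stood at 1.43 (1.09 to 1.89) and 1.21 (1.08 to 1.35). In the macrophage-like cells it was 33.2, 30.6 and 12.9 CPM, a ratio of 0.389 (0.224 to 0.663). In the endothelial-like cells it was 32.1, 22.9 and 10.2 CPM, a ratio of 0.319 (0.173 to 0.586), from 24 counts in each of WT and KO. The stem cell-like cells stood at 0.624 (0.386 to 1.01). Among the clusters compared, 0, 1 and 4 thus stood above 1 and the macrophage-like, endothelial-like and stem cell-like clusters below it. The gonadotrope-like cells were at 0.930 (0.728 to 1.20). These differences between clusters were not tested. The near level sum over all cells also took in clusters 6 and 7, where no KO cells fell. Without them, a setting chosen after seeing the data, the log2 ratio of Per1 over all cells was 0.25 in place of 0.08.

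The activating pair stood lower in the KO stem cell-like cells. Arntl was at 54.8, 43.7 and 33.7 CPM there, with KO over WT at 0.615 (0.447 to 0.846), and Clock was 80.5, 79.1 and 57.9 CPM, a ratio of 0.719 (0.560 to 0.926). In the same cells Dbp, Nr1d1, Per3, Nr1d2 and Cry2 were above 1 with intervals that left it out, Nr1d1 at 66.3 CPM in WT and 94.9 in KO. Elsewhere Clock lay between 0.674 and 1.08 and Arntl between 0.847 and 1.73, and each interval held 1. Cry1 stood above 1 in 5 of 7 clusters and Cry2 in 5 of 6. Intervals left out 1 for Cry1 in cluster 4, at 1.62 (1.26 to 2.11), and for Cry2 in cluster 0, at 1.28 (1.13 to 1.44), in the gonadotrope-like cells, at 1.54 (1.11 to 2.20), and in the stem cell-like cells, at 1.66 (1.001 to 2.83). Nr1d1 in the endothelial-like cells stood at 9.08 (2.40 to 76.8), a ratio that rests on 2 counts in WT against 57 in KO.

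**Figure D3:**
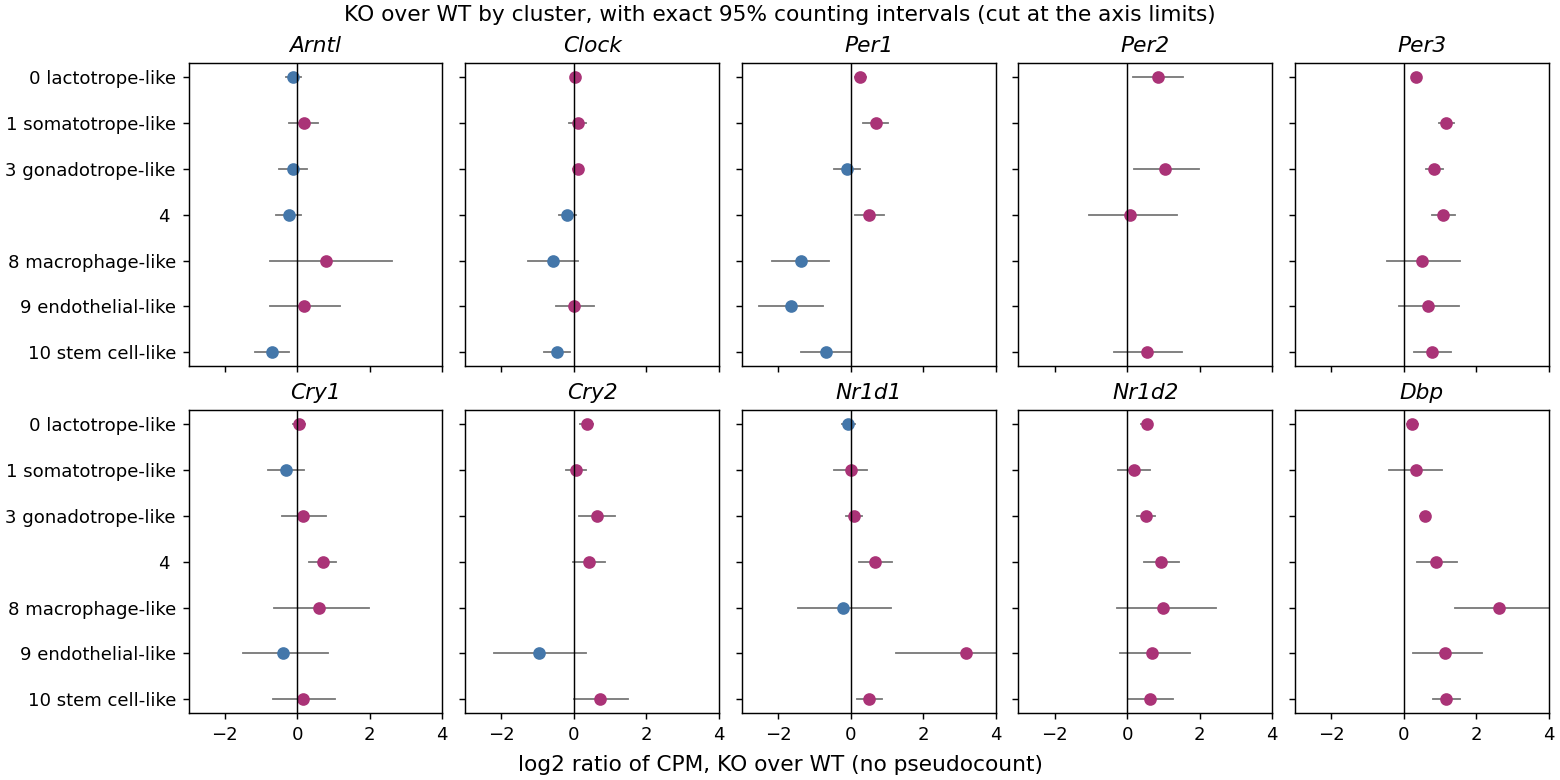
Log2 ratio of CPM, KO over WT, for the 10 clock genes in the 7 clusters with at least 100 cells in both libraries and 20 counts of the gene, with exact 95% counting intervals cut at the axis limits (red above 0, blue below). Per3, Nr1d2 and Dbp lie above 0 in all 7, and Per1 lies above 0 in clusters 0, 1 and 4 and below it in 3, 8, 9 and 10.

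Most KO cells of the growth hormone lineage were not in the clusters compared. Cluster 2, somatotrope-like, held 2081 WT and 2092 HT cells and 17 KO cells, while cluster 5, unnamed, held 2457 KO cells and 28 WT cells. Cluster and library cannot be told apart here, so the values are given side by side. Per3 was 20.2 CPM in WT and 29.3 in HT in cluster 2 and 41.1 in KO in cluster 5. Dbp was 4.67, 7.50 and 11.1 CPM, and Nr1d2 was 11.9, 10.7 and 16.3 CPM. The KO cells of cluster 5 thus stood higher in CPM for these 3 transcripts than either library of cluster 2. So did Per1 (12.1 against 8.49 and 10.1), Per2 (1.33 against 0.541 and 0.910) and Clock (33.5 against 32.7 and 27.4). Cry2 was lower in them, at 19.4 CPM against 24.8 and 26.4, as was Nr1d1, at 17.8 against 21.8 and 18.3. Gh took less of cluster 5 in KO (460747 CPM) than of cluster 2 (522840 in WT, 517693 in HT), which bears on these levels.

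In HT over WT, 0 of 10 members were past the fold in either direction over all cells. With 0.638% of all genes higher and 0.8% lower, a count of 0 is near the background. Per2 had the highest ratio, 1.56 (1.23 to 1.99), and Arntl the lowest, 0.844 (0.795 to 0.895). Across the 10 clusters compared, 0 members stood above 1 in each and 0 below 1 in each, against 2.1% and 3.4% of all genes. Clock and Nr1d2 were each below 1 in 8 of 10 clusters, and Per2 was above 1 in 5 of the 6 with enough counts. The lowest Clock ratio was in the gonadotrope-like cells, at 0.771 (0.688 to 0.864). Per3 was split, at 1.53 (1.32 to 1.76) in cluster 1 and 1.45 (1.31 to 1.61) in cluster 2 but 0.760 (0.673 to 0.859) in the corticotrope-like and 0.529 (0.434 to 0.645) in the melanotrope-like cells. Per1 was above 1 in those last clusters, at 1.34 (1.14 to 1.58) and 1.46 (1.20 to 1.79), while Arntl in the corticotrope-like cells was 54.2 CPM in WT and 40.4 in HT, at 0.746 (0.649 to 0.858). In the Pomc-expressing clusters, then, Per1 stood higher and Per3 lower in HT than in WT.

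KO over HT shares the KO library with KO over WT, so the values are set side by side and not counted as a repeat. Over all cells Dbp, Nr1d2 and Per2 were again the 3 of 10 higher past the fold, with ratios of 2.15, 1.68 and 1.86, and 0 were lower, against 5.18% of all genes higher and 2.12% lower. In the authors' scaled counts Dbp and Nr1d2 were short of the limit, at log2 ratios of 0.37 and 0.48, Per2 stood at 1.59 and Cry2 was past it at 0.63, while Per1 at -0.91 and Arntl at -0.63 were lower past it. With equal cluster weights these 3 stood at 1.45, 1.47 and 1.83, against 1.9% of all genes higher. Among the 9 clusters, Per2 was above 1 in all 6 with enough counts and was the 1 member above 1 throughout, against 5.04% of all genes. Per3 stood above 1 in 8 of 9, and Nr1d2 and Dbp in 7 of 9. Dbp was below 1 in cluster 11, unnamed and led by Klk1 and Cdkn1c, at 103 CPM in HT and 72.6 in KO (ratio 0.704, 0.557 to 0.899), and it was level in cluster 13, unnamed and led by Selenbp1, at 124.9 and 125.0 CPM. The endothelial-like cells gave the highest Dbp ratio of this comparison, 7.20 (3.17 to 20.2), from 6 counts in HT and 83 in KO.

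The clusters differed more in some members than the libraries did. Clusters with at least 50 cells in 2 or more libraries, 16 in all, were ordered by the median of their libraries, a spread that holds the genotypes. Dbp covered a 38-fold range of medians. It was highest in cluster 13, at 137, 124.9 and 125.0 CPM, then in cluster 11 and in the gonadotrope-like cells, and the ranges of these 3 overlapped. It was lowest in the somatotrope-like cluster 1, at 2.60, 3.85 and 3.29 CPM, apart from cluster 4 above it. In cluster 1 Gh stood at 680373, 684320 and 626615 CPM, which lowers the CPM of every other gene there. The 38-fold range of Dbp therefore holds this share of Gh as well. The Dbp level of 13 of 15 neighbouring pairs overlapped. Per3 was also highest in cluster 13, at 140, 122 and 136 CPM. The thyrotrope-like cluster 14, the thyrotropin-making cells, came next at 56.4, 120 and 93.8, a range just below that of cluster 13. The HT intervals, 103 to 144 in cluster 13 and 93.4 to 152 in cluster 14, overlapped. By the share of cells with a count, cluster 14 was first for Per3. Nr1d2 was highest in cluster 13 by CPM, at 42.6, 45.6 and 45.4, and all 15 of its neighbouring pairs overlapped.

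Nr1d1 and Per2 were highest in the stem cell-like cells. Nr1d1 was 66.3, 58.7 and 94.9 CPM there, apart from the next cluster, 13, at 42.6, 40.5 and 47.7. Per2 was 10.1, 5.41 and 14.8 CPM there, a range just above that of the gonadotrope-like cells at 2.58, 4.12 and 5.29. The HT value in the stem cell-like cells came from 13 counts. Its interval, 2.88 to 9.26, overlapped that of the KO gonadotrope-like cells, 4.36 to 6.36. Clock was highest in the gonadotrope-like cells, at 101, 77.8 and 109 CPM, and the range there overlapped that in the stem cell-like cells. Its lowest CPM was in cluster 1, at 26.7, 23.0 and 28.7, where Gh took most of the counts. By the share of cells with a Clock count, cluster 1 (15.1%, 16.7% and 16.3%) stood above the macrophage-like cells (8.47%, 11.4% and 6.71%).

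Arntl was highest in the corticotrope-like cells, at 54.2 and 40.4 CPM in WT and HT, followed by the stem cell-like and melanotrope-like cells, with overlapping ranges. It was lowest in the macrophage-like cells, at 4.49, 11.02 and 7.75 CPM. Cry1 was highest in the melanotrope-like cells, at 30.1 and 32.4 CPM, apart from the corticotrope-like cells at 25.8 and 20.8. Cry2 and Per1 were highest in the corticotrope-like cells, at 36.0 and 30.0 CPM for Cry2 and 30.6 and 40.9 for Per1, and both overlapped the next cluster. The Pomc-expressing clusters therefore headed the order for Arntl, Cry1, Cry2 and Per1, and for these clusters the KO library has no value. With hormone and mitochondrial genes left out of the totals, 7 of the 10 members kept the same top cluster. The exceptions were Arntl, then highest in cluster 7, Per1, in cluster 12, and Cry2, in cluster 1.

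**Figure D4:**
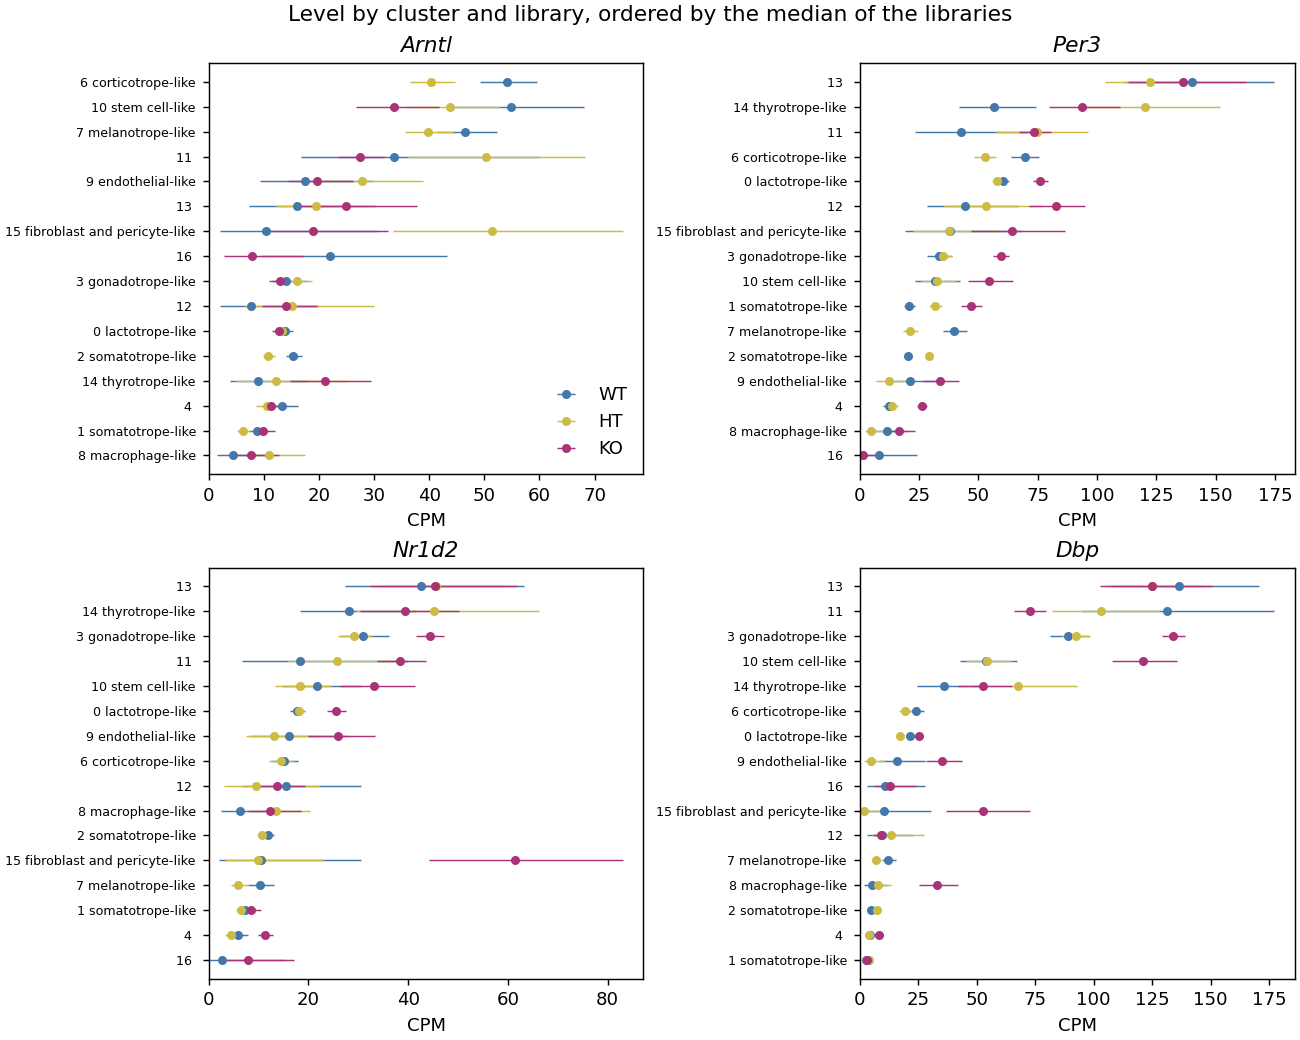
Level in CPM of Arntl, Per3, Nr1d2 and Dbp in each cluster with at least 50 cells in 2 or more libraries, one point per library with its exact 95% Poisson interval, ordered by the median of the libraries. Dbp reaches 137 CPM in cluster 13 and 134 in the KO gonadotrope-like cells against 2.60 to 3.85 in cluster 1, where Gh takes most counts. Arntl is highest in clusters 6, 10 and 7.

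Over the 37 combinations of cluster and library with at least 100 cells, the members closest to each other were Dbp and Nr1d2, with a Pearson r of 0.888 between their log2(CPM + 1) values. These points share libraries and differ in depth, so r is a description. Per1 and Per2 were the least alike pair, at -0.133. Among all genes with at least 500 counts, Dbp was most like Idh1 (0.893), Man1a2 (0.889) and Nr1d2, and Nr1d2 was most like Dbp, Tef (0.842) and Man1a2 (0.827). Clock was most like Scmh1 (0.892), Cd164 (0.892) and Zzz3 (0.880), Per3 like Cplane1 (0.868), Snx21 (0.863) and Srek1 (0.839), and Nr1d1 like 0610009L18Rik (0.882), Zbtb6 (0.848) and Arl2 (0.846). Arntl was most like Ahdc1 (0.828), Rrp12 (0.827) and Flrt3 (0.826), Per2 like Dhx33 (0.814), and Cry1 like Mllt11 and Kcnip3 (both 0.805). No gene reached 0.8 for Per1 or Cry2.

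A list of 20 other clock genes gave, in KO over WT over all cells, 2 higher past the fold and 3 lower. Of all genes, 6.14% were higher and 2.97% lower. The median log2 ratio of the list was 0.06, near the 0.05 over all genes. With equal cluster weights 2 were higher and 2 lower, against 2.09% and 2.52% of all genes, and the median was -0.02. Noct, at -0.42, was then short of the limit. Tef, a relative of Dbp that binds the same D-boxes, was at 12.4, 13.3 and 21.6 CPM and stood above 1 in all 7 clusters. Ciart, an inhibitor of the ARNTL and CLOCK pair, was 0.960, 1.38 and 1.96 CPM and stood above 1 in the 3 clusters with enough counts. Bhlhe41, another repressor of that pair, came next, at 22.8, 24.3 and 28.1 CPM. The 3 lowest were Npas2, a relative of Clock, at 2.22, 1.65 and 0.765 CPM, Noct, a rhythmic phosphatase, at 15.3, 16.4 and 8.76, and Usp2, a deubiquitinase with a rhythmic transcript, at 35.5, 36.2 and 21.2. Usp2 stood below 1 in all 7 clusters. Outputs of the loop therefore lay on both sides, Dbp and Tef higher in the KO library and Usp2 lower.

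Genes that answer to glucocorticoids or to tissue dissociation differed between the libraries as well, and their part in the clock values was not tested. Of 12 glucocorticoid-induced genes, 6 were lower past the fold in KO over WT, 0 were higher, against 2.97% of all genes lower and 6.14% higher, and the median log2 ratio was -0.53. With equal cluster weights 2 of 12 were lower past the fold, Fkbp5 at -0.92 and Cdkn1a at -0.76, against 2.52% of all genes, and the median was -0.39. The lowest were Errfi1 at -1.22, Fkbp5 at -1.07 and Cdkn1a at -1.0045, and the highest Sgk1 at 0.49, Dusp1 at 0.40 and Tsc22d3 at -0.05, in the sums over all cells. With equal weights Errfi1 was at -0.37 and Sgk1 on the other side, at -0.43. Fkbp5, a classic target of the receptor, was at 45.4, 48.7 and 21.1 CPM, and the receptor gene Nr3c1 was 53.8, 43.2 and 47.5. Of 12 immediate early and heat shock genes 2 were higher past the fold and 0 lower, with a median of 0.21. The heat shock genes Hspa1a (75.2, 158 and 172 CPM) and Hspa1b (51.4, 100 and 111 CPM) were higher in HT and in KO than in WT. Jun came next in that list at 0.25, and Atf3, Ier2 and Egr1 were the lowest at 0.07, 0.10 and 0.12.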

How the data were processed

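Single-cell RNA was sequenced with Chromium 3′ v3 reagents, per the labels' protocols. Tools listed in the submitters' processing notes, without their roles, are Cell Ranger 5, Seurat 3.1 and DESeq2, and the genome build is listed as mm10 and GRCm38. The authors deposited raw counts in 55403 gene rows, each value the sum over the cells of 1 genotype within 1 cluster (61 such sums per gene). Whether duplicates of a molecule had been merged is not given in the sources used here, so the values are called counts. A further deposited table holds the same sums multiplied by 1 factor per combination (scaled counts, unit signal), used as an alternative only. Other deposited quantities were the number of cells with a count of each gene and the cluster of each barcode. No counts of single cells were used, so no step was taken against doublets here.

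Rows of the same symbol were added. CPM is a count over the total of the library or cluster. Ratios have exact conditional binomial, levels exact Poisson and shares Clopper-Pearson intervals (Python 3.11.15, numpy 2.4.6, pandas 2.3.3, scipy 1.17.1, matplotlib 3.10.9). The script that counts clusters on 1 side of 1 was checked on simulated counts with known ratios, which tests the code and not the genotypes. Clusters were named where at least 3 markers of a list were detected at 2-fold or more, with 1 among the 10 leading genes. Coordinates are those deposited, and for the 10 members they equal those of GENCODE M21. Besides the members, the text names for each list the 3 highest and 3 lowest log2 ratios of KO over WT, the 3 genes most like each member (r of at least 0.8) and overlapping genes. Fkbp5 and Usp2 are described in more detail than the rest of their lists, and this was chosen after their values were seen, as were the gonadotrope markers and clusters 2 and 5. The members, lists and rules were chosen with earlier results of these data known.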

Additional observations from a re-analysis of the deposited data

Results flagged for a closer look

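For 7 of the members, clusters of the same comparison lay on opposite sides of 1, with counting intervals that left 1 out on both sides. Whether the clusters differ was not tested, since each value compares 1 library with 1 library. The share of all genes that meet this rule is not given, so the count is not read as a trait of clock genes. In KO over WT such opposite clusters were found for Per1, with ratios of 1.62 in the somatotrope-like cluster 1 and 0.319 in the endothelial-like cluster 9. In KO over HT, Per1 stood at 1.89 in cluster 1 and 0.422 in the macrophage-like cluster 8. In HT over WT, Per1 was at 1.56 in cluster 4 and 0.873 in the lactotrope-like cluster 0. Per3 was at 1.53 in cluster 1 and 0.529 in the melanotrope-like cluster 7 in HT over WT. Cry1 was at 1.52 in cluster 4 and 0.685 in the somatotrope-like cluster 2, and Dbp at 1.61 in cluster 2 and 0.574 in cluster 7, both in HT over WT. In KO over HT, Arntl was at 1.59 in cluster 1 and 0.545 in cluster 11. Clock was at 1.40 in the gonadotrope-like cluster 3 and 0.474 in cluster 8. Cry2 was at 2.69 in cluster 13 and 0.479 in cluster 11. Dbp was at 7.20 in cluster 9 and 0.704 in cluster 11.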

How the results depend on the processing

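No paired analysis was possible because there was 1 library per genotype, and no library could be left out. Of 240 ratios of single members recomputed under other settings, 137 moved by less than their counting interval, 103 moved by more, and none of those past the fold changed side. With the authors' scaled counts 27 of 30 moved by more, and by the share of cells with a count 23 of 30. Members short of the fold did change side. With the scaled counts the KO over WT log2 ratio went from 0.20 to -0.30 for Clock, from 0.08 to -0.34 for Per1 and from -0.22 to 0.16 for Cry2. The number of members higher past the fold in KO over WT, and likewise in KO over HT, was 1, Dbp, with a pseudocount of 10 CPM and 1, again Dbp, at a log2 ratio of 1. With the authors' scaled counts, which weigh clusters about alike, 1 was lower in KO over WT (Arntl), 2 were lower in KO over HT (Arntl and Per1), where Cry2 replaced Dbp and Nr1d2 beside Per2 among the higher, and 1 was higher in HT over WT (Per1). In HT over WT, 1 was higher with a pseudocount of 0.1 CPM and 1 by the share of cells with a count, in both cases Per2. The members above 1 in every cluster of KO over WT numbered 1, Per2, with clusters of at least 50 cells. In KO over HT the number above 1 in every cluster was 3 (Per2, Per3 and Cry1) with clusters of at least 200 cells and 0 at 50 counts per cluster. Taking only clusters whose interval left out 1, the members on the high side throughout numbered 7 in KO over WT, 1 in HT over WT and 5 in KO over HT, and those on the low side 2 in KO over WT and 5 in HT over WT. That setting uses fewer clusters per gene. It rests on 1 cluster for Arntl, Clock and Cry1 in KO over WT and for Per2, Cry2 and Nr1d2 in HT over WT. No share of all genes stands beside these counts, so they are not read as sharing between clusters. The top cluster was the same for 3 of 10 members when clusters were ordered by the share of cells with a count. The cause of the other shifts was not tested. Depth limits Per2 most, with 102 counts in WT.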
